A study of Mus musculus with 2 samples.

Results

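Motile cilia genes were followed in RNA of mouse lung epithelial cells. Cells labelled Mob1DKO were compared with wild-type (WT) cells on Agilent 1-colour oligonucleotide arrays, 1 per group. The genes were chosen by name: 45 genes known from the axoneme of motile cilia, from its assembly or from its transcriptional program were listed. Of these, 41 had a probe that could be named among 20660 named genes, and 40 were measured, as were 15099 genes in all. A gene counts as measured when a probe clears the background, that is, when the scanner software marks it as well above background on 1 array or both. Both groups were mice of strain C57BL/6 at an age of 10 weeks. Mob1DKO is read here as loss of Mob1a and Mob1b, adaptor proteins of the LATS kinases in the Hippo pathway. The sources used here give neither the alleles, nor a promoter that drives a recombinase, nor the sex or number of animals behind each RNA. The question addressed here is whether the program of motile cilia differs between the genotypes. A single array per group leaves no replicate and no test, and precision is limited by that number.

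Motile cilia are the beating hairs of the multiciliated cells of the airway, where they move mucus. Each holds an axoneme of outer doublet microtubules around a central pair. Outer and inner dynein arms slide the doublets, nexin links and radial spokes regulate that sliding, and the dyneins are assembled in the cytoplasm by dedicated factors before they enter the cilium. The program is driven early on by the co-activator Mcidas and carried by the forkhead factor Foxj1 and by RFX factors. RFX factors bind a palindromic promoter element called the X-box.

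The sequences around the start sites of the motile cilia genes were examined first, since RFX factors are themselves members of the list. The X-box was searched as the arm GTTNCC, any 2 bases, and the arm GGNAAC, which reads the same on both strands, in RefSeq windows of build GRCm38.p6 from 250 bases before to 50 bases after each start. Of the 45 genes, 37 had a window, and these had 43 windows. A match with at most 1 mismatch in the 10 fixed letters was found in 20.9% of these windows and in 2.56% of all 32851 windows. With at most 2 mismatches the shares were 60.5% and 13.9%. Both wider and narrower forms of the motif were therefore more frequent in the windows of motile cilia genes, as a description of these sequences without a test. The 9 genes with at most 1 mismatch were Pifo, Ccdc113, Ccno, Drc1, Enkur, Hydin, Spag16, Tekt4 and Zmynd10, and the match of Pifo, at an inner start of the gene, had no mismatch. The following stretches are shown because in each the X-box lies within 21 bases before the start or at it. They are written 5′ to 3′ on the gene's own strand, with the X-box in capitals.
Pifo, chr3:106001496-106001525, minus strand: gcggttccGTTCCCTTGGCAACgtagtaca
Drc1, chr5:30281366-30281395, plus strand: gtgactgcTTTCCCTTGGCAACggcttgtt
Ccdc113, chr8:95534078-95534107, plus strand: agcgttcaGTTGTCTAGGCAACgcgcctca
Hydin, chr8:110266948-110266977, plus strand: actctgcgGTTGCTGTGGCAACagatggta
Enkur, chr2:21205356-21205385, minus strand: tagcaactGTTTCCTTAGCAACcacgtggt
Tekt4, chr17:25471582-25471611, plus strand: tatacaatGTTCCTTAGGCAACcaggaacc
Zmynd10, chr9:107547296-107547325, plus strand: gctccctcGTTTCCATGGCGACgacgactc
The right arm GGCAAC is shared by Pifo, Drc1, Ccdc113, Hydin and Tekt4, which encode proteins of unlike position in the cilium. Ccno and Spag16 had their matches farther upstream, at 219 and 103 bases before the start. Tekt4 had a further match with 1 mismatch, at 160 bases before the start. Where matches of a window tie, the counts by position below use the one farthest upstream.

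Of 43 windows of motile cilia genes, 11 (25.6%) had the centre of their best X-box match in the 25 bases just before the start, against 1.44% of all windows. This contrast includes the higher frequency of matches. Among windows with a match of at most 2 mismatches, 14 of 26 (53.8%) of motile cilia genes had its centre from 50 bases before to 25 bases after the start, against 29.8% of 4575 in all. The single arm GTTGCC, on either strand, was held by 51.2% of the windows of motile cilia genes and 12.5% of all windows. It overlaps the X-box, so both counts draw partly on the same bases. The forkhead element TGTTTAC, on either strand, was in 4.65% of the windows of motile cilia genes, those of Sntn and Ak7, and in 3.65% of all windows. Among other motile cilia genes, a second list described below, 20.4% of 103 windows held an X-box with at most 1 mismatch. A match in these windows is a description of letters and shows no binding.

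**Figure D1:**
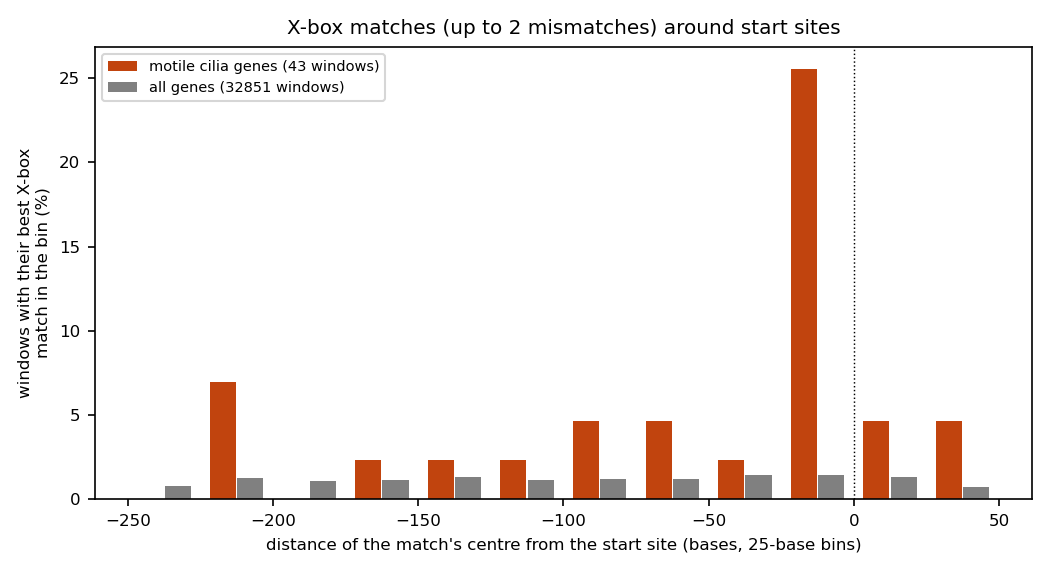
Share of promoter windows (percent, vertical axis) whose best X-box match of at most 2 mismatches has its centre in each 25-base bin (horizontal axis, bases from the start site), for the 43 windows of motile cilia genes and all 32851 windows. The bars of motile cilia genes reach 25.6% in the bin just before the start, where those of all windows reach 1.44%.

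Levels are log2 of the scanner software's processed signal minus the array's 75th percentile over all gene probes, so a level of 0 lies at that percentile. Pairs of levels are given as Mob1DKO against WT. Differences are Mob1DKO minus WT, and the brightest probe stands for a gene with several. The 75th percentile was 291 for Mob1DKO and 155 for WT, so scaling takes out a 1.88-fold gap in brightness. Of 55681 probes, 58.6% and 53.1% were well above background on these arrays, and no spot was saturated. The targeted Mob1b was at −2.98 against −0.98, and its second probe, at −3.79 against −1.09, was 6.48-fold lower in Mob1DKO. The Mob1a probe differed by 0.071, and its place relative to any deleted part is not given. Epithelial markers were present, with Epcam at 2.39 against 2.20 and Cdh1 at 5.66 against 5.56. Xist, the RNA of the inactive X, was at −1.48 against 0.82, or 4.90-fold lower in Mob1DKO, so the sex of the animals and their genotype cannot be told apart in any difference below.

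Motile cilia genes were expressed on both arrays, and their differences between the arrays were under 2-fold. All but 1 of the 40 measured genes cleared the background on both arrays, and 30 of them lay at or above the 75th percentile on both. None of the 40 differed by 2-fold or more. Of all named genes 6.7% did, with 3.79% higher and 2.91% lower on the Mob1DKO array, but most of these cleared the background on 1 array only. Among the 13866 genes that cleared it on both arrays the share was 2.68%, and 0 of 39 motile cilia genes is close to that share. The median difference was −0.035 (0.094 with normexp background correction, and below 0 under the 8 other alternatives), with the middle of the values between −0.18 and 0.055, against a median of 0.024 and a middle between −0.18 and 0.22 over all 15099 genes. On the basis of both arrays, differences of at most 0.2 in size were found for 28 of 39 motile cilia genes (71.8%) and for 53.2% of all genes. Differences of 0.5 or more in size were found for 6 of 39 (15.4%) and for 13.9% of all genes. The shares in this paragraph are not matched for level, and differences spread less among brighter genes. A mean level above 2 was held by 19 of the 40 motile cilia genes and by 4387 of the 15099 genes. There the middle of all genes ran from −0.13 to 0.16, against −0.39 to 0.54 below −2. In RNA from many cells, a change in the number of ciliated cells and a change in RNA per ciliated cell cannot be told apart.

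**Figure D2:**
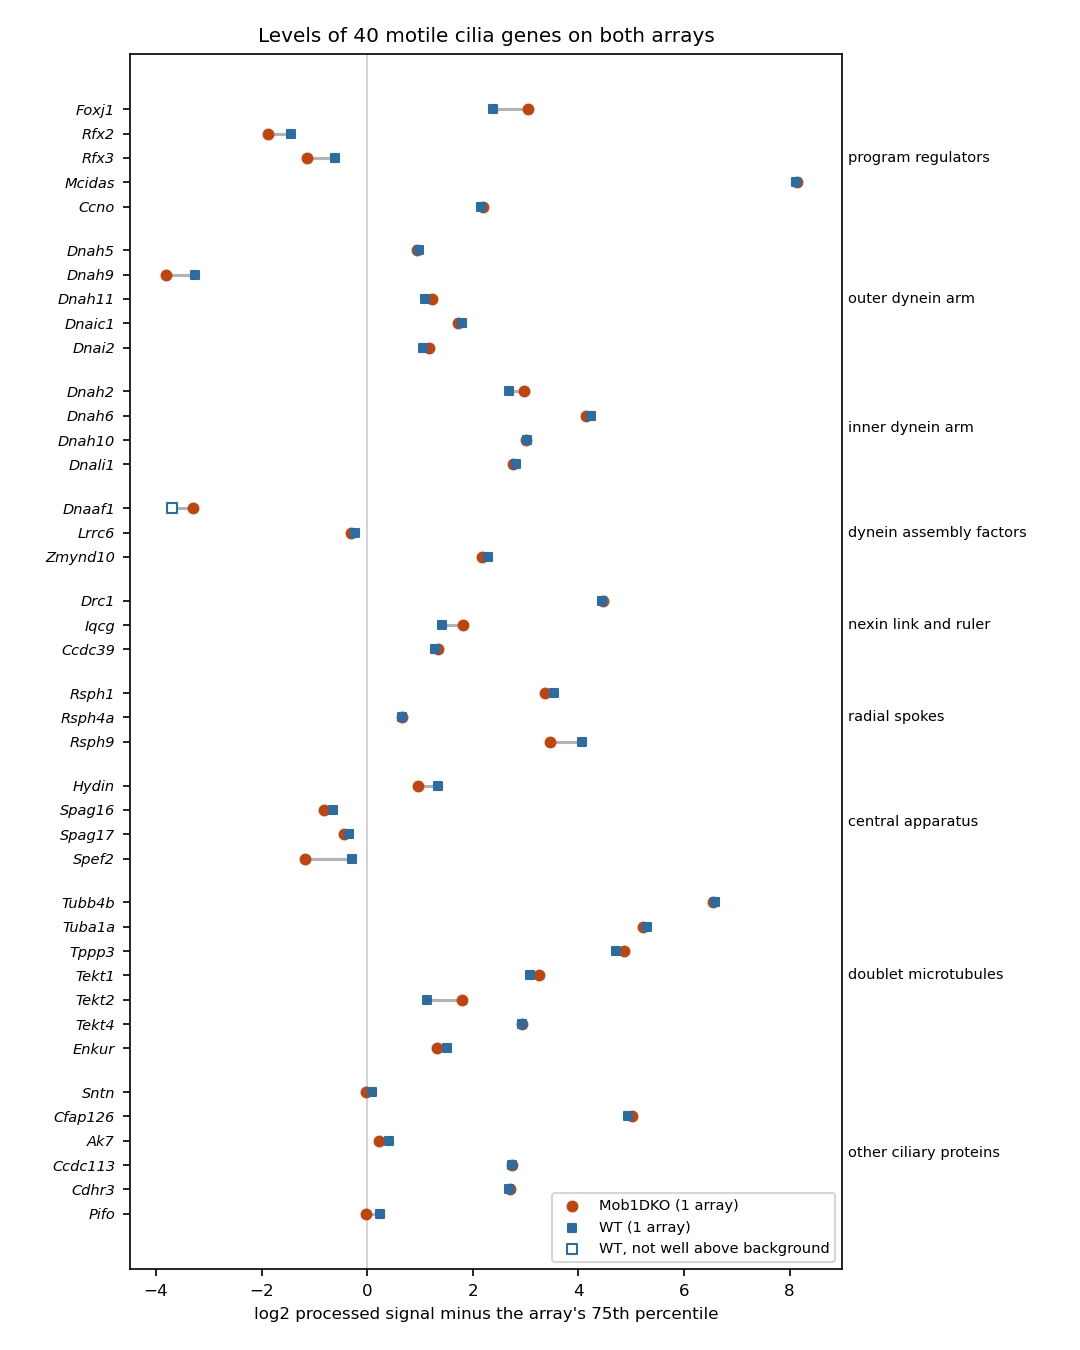
Levels of the 40 measured motile cilia genes on the Mob1DKO array (circles) and the WT array (squares), grouped by part of the cilium, on the log2 scale relative to each array's 75th percentile (horizontal axis). The symbols overlap for most genes, and the widest gap is that of Spef2, at −1.18 against −0.28; the open square marks Dnaaf1, which was not well above background on the WT array.

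A technical error was taken from probes printed at 10 spots, as the SD of a difference between single spots. It was 0.36 for levels below −2, 0.18 from −2 to 0, 0.098 from 0 to 2 and 0.062 above 2. The scanner software's own error estimate for the members' differences was larger, with a minimum of 0.204. Neither includes the spread between animals or RNA preparations. Of the 40 genes, 13 exceeded 2 times the first error (32.5%, against 41.9% of all genes). The 5 genes that exceeded 2 times both errors were Foxj1 and Tekt2, higher on the Mob1DKO array, and Rfx3, Rsph9 and Spef2, lower there. Of all genes, 17.9% exceeded 2 times both errors, against these 5 of 40 (12.5%). Among genes that cleared the background on both arrays, 16.2% of all genes and 12.8% of motile cilia genes did so. For the first error alone, the shares on that basis were 39.9% and 33.3%. Under the 9 other processing settings these 5 kept their sign, but with normexp background correction Rfx3 (−0.40) and Rsph9 (−0.36) came to less than 2 times the software's error.

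The regulators of the program went both ways. Foxj1, the forkhead factor that activates axonemal genes, stood at 3.04 against 2.39, which is 1.57-fold higher (0.65, technical SD 0.062). Rfx3, an RFX factor that activates cilium genes through the X-box, stood at −1.14 against −0.61, or 1.45-fold lower (−0.54, technical SD 0.18). Its other probes differed by −0.67 and −0.60, so all 3 Rfx3 probes gave a like value. Rfx2, its relative, lay at −1.87 against −1.44, a difference of −0.43 that was more than 2 times the technical SD of 0.18 but not 2 times the software's estimate of 0.23. Mcidas, an early co-activator of the program, was at 8.14 against 8.11 and differed by 0.022. It has 1 named probe, the brightest of all members, and whether that probe reads Mcidas alone was not tested. Ccno, a cyclin-like protein needed for the mass production of centrioles and the direct neighbour of Mcidas in the genome, was at 2.19 against 2.15 and differed by 0.039. Both of these differences lay within the technical SD of 0.062, although that of Mcidas was 0.11 after quantile normalization and in the deposited value table, and 0.16 after loess. The group median was 0.022.

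Outer dynein arms, the main force generators of the beat, showed no gene beyond 2 times the technical SD. The heavy chain Dnah5 was at 0.94 against 0.98 and differed by −0.035. Dnah11, the heavy chain of the proximal part of the cilium, was at 1.22 in Mob1DKO and differed by 0.12. The distal heavy chain Dnah9 had the faintest probe of this group, at −3.81 against −3.26, and its difference of −0.54 carried a technical SD of 0.36. The intermediate chains Dnaic1 and Dnai2, which hold the arm to its base, differed by −0.075 and 0.12. The docking factor Armc4 had no named probe. The median of the 5 measured genes was −0.035.

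Inner dynein arms, which shape the waveform, were represented by 4 measured genes with a median of −0.030. Of these, the heavy chain Dnah2 was past 2 times the technical SD of 0.062, at 2.98 against 2.69 (0.29), but within 2 times the software's error. The heavy chains Dnah6 and Dnah10 and the light intermediate chain Dnali1 differed by −0.093, −0.0086 and −0.052. Dnah10 showed how much a probe can matter. Its brightest probe was at 3.01 against 3.02, while its 2 fainter probes, with a technical SD of 0.36, differed by −0.65 and −0.52. Dnah3 and Dnah12 had no named probe.

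Factors that assemble dyneins in the cytoplasm were also near level. Zmynd10 was at 2.17 against 2.29 (−0.12), and Lrrc6 at −0.31 against −0.24 (−0.070). Dnaaf1 cleared the background in Mob1DKO but not in WT. It was at −3.29 in Mob1DKO, at least 1.12-fold higher than the lowest WT level well above background. Its sign turned under another background correction, to −0.34.

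Among genes of the nexin link and of the ruler that sets the repeat along the doublet, Drc1 and Ccdc39 differed by 0.011 and 0.049. Iqcg, a further subunit of the nexin-dynein regulatory complex, was at 1.81 against 1.42. Its difference of 0.39 exceeded 2 times the technical SD of 0.098 and lay just within 2 times the software's error of 0.20. Ccdc40, the partner of Ccdc39 in the ruler, had no named probe.

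Radial spokes, which pass signals from the central pair to the dynein arms, held 1 of the larger differences. Rsph9, a protein of the spoke head, was at 3.46 against 4.06, or 1.52-fold lower (−0.60, technical SD 0.062). The spoke-head protein Rsph4a differed by 0.0040 and 0.15 on its 2 probes. Rsph1, also of the spoke head, differed by −0.19 on its brighter and 0.25 on its dimmer probe, so its direction is not settled. The group median of −0.19 turned to 0.030 when the probes of a gene were averaged.

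Genes of the central apparatus lay on 1 side. All 4 measured genes were lower on the Mob1DKO array, with a median of −0.28, and this median stayed between −0.38 and −0.28 under the 9 other settings. Spef2, a protein of the central pair projections, had the lowest difference of all members, at −1.18 against −0.28, or 1.86-fold lower (−0.90, technical SD 0.18). Before scaling its spots were equally bright on both arrays, with a processed signal of 128 each. Hydin, a very large protein of a central pair projection, was at 0.95 against 1.34 (−0.38, technical SD 0.098), and its second probe differed by −0.44. Spag16 (−0.17) and Spag17 (−0.088), also of the central pair, lay within the technical SD of 0.18. Neither probe of Spag6 cleared the background, while its close paralogue Spag6l was at 1.27 against 1.17. The 10 measured genes of the second list that belong to the central apparatus had a median of 0.10, so the shared sign was not seen there.

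Proteins of the doublet microtubules had a median of 0.0098, which was 0.21 with normexp background correction. Tekt2, a tektin that forms filaments inside the doublet, was at 1.79 against 1.13, or 1.58-fold higher (0.66, technical SD 0.098). The related Tekt4 was at 2.94 against 2.93 and differed by 0.0098. Tekt1 differed by 0.16 on its brighter probe and −0.043 on its dimmer one, both within 2 times the software's error of 0.20. The beta tubulin Tubb4b, a main tubulin of cilia, was at 6.55 against 6.58 (−0.035). Its sign turned in 4 of the 9 other settings, to 0.049 after quantile normalization and in the value table, 0.058 after loess and 0.22 with normexp. The alpha tubulin Tuba1a, which other cells express as well, was at 5.23 against 5.30 (−0.067). Tppp3, which promotes tubulin polymerisation, differed by 0.16 and the inner microtubule protein Enkur by −0.19.

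The remaining members also lay close together on both arrays. Cdhr3, a cadherin-like surface protein of ciliated cells, was at 2.70 against 2.69 (0.0064). Ccdc113 was at 2.74 against 2.75 (−0.012), and Cfap126, which helps to dock basal bodies, at 5.01 against 4.94 (0.072). Sntn, a protein of the ciliary tip, differed by −0.10 and the adenylate kinase Ak7 by −0.19. Pifo, which acts at the base of the cilium, differed by −0.26, which was beyond 2 times the technical SD of 0.098 but not 2 times the software's error of 0.21. The median of these 6 genes was −0.056. Across all members, the 24 with an X-box of at most 2 mismatches had a median of −0.063, and the 10 measured genes with a window but no such match had one of −0.035.

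**Figure D3:**
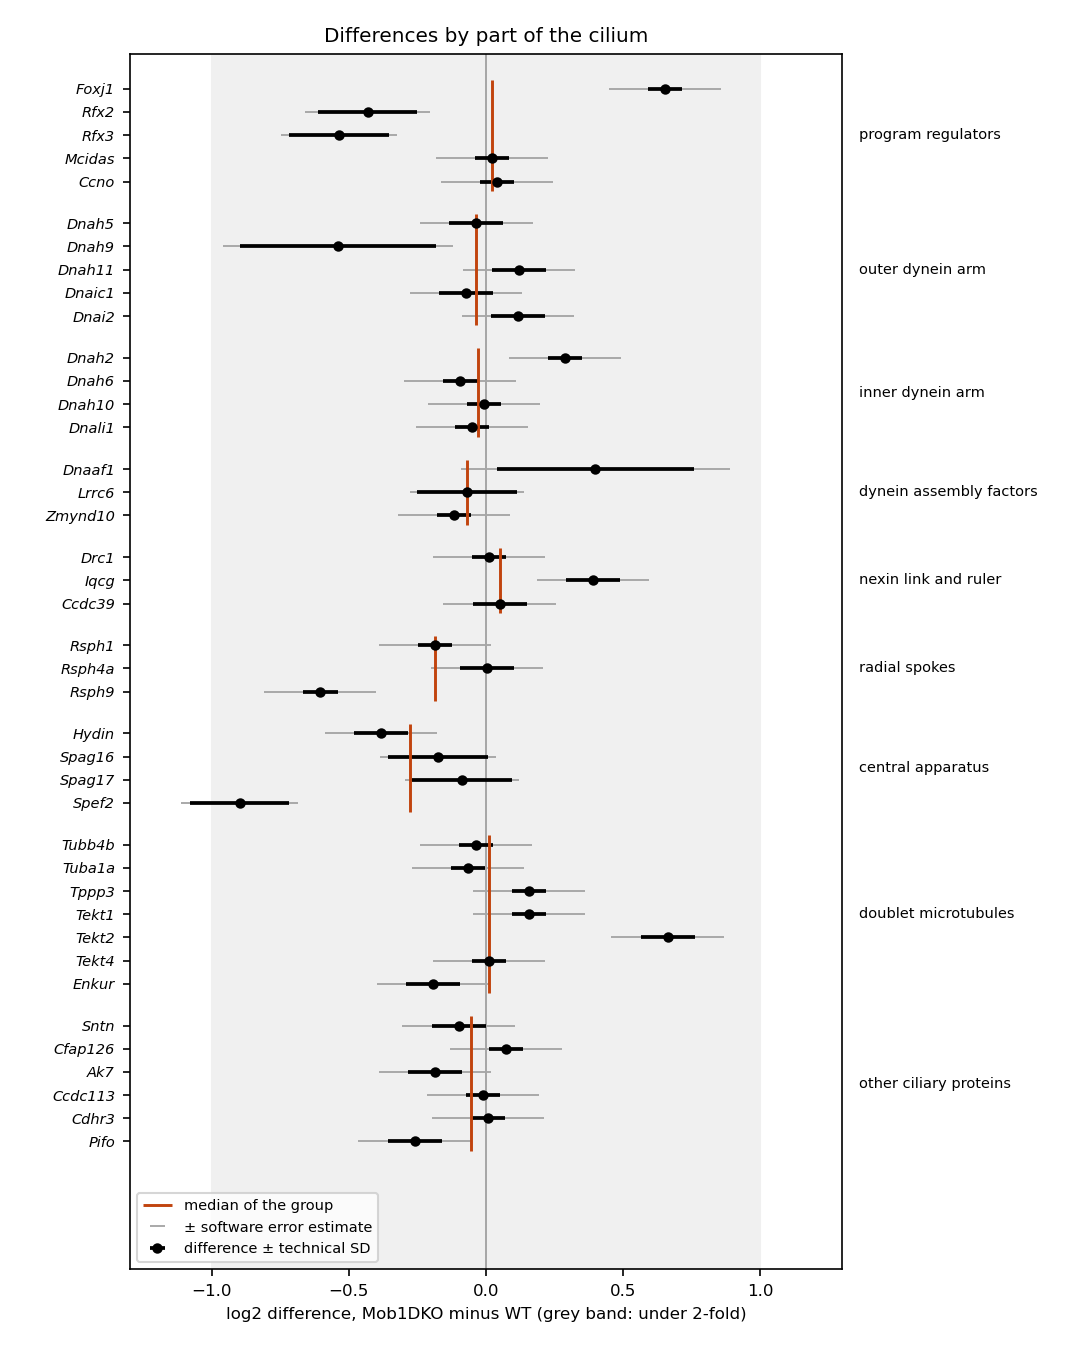
Log2 difference, Mob1DKO minus WT (horizontal axis), of each measured motile cilia gene by part of the cilium, with the technical SD as a thick bar, the software's error estimate as a thin bar and each group's median as a vertical line. All 40 points lie inside the grey band of less than 2-fold, with Spef2 at −0.90 and Tekt2 at 0.66 as the outermost.

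Probes of 1 gene were also set against each other. For the 7 motile cilia genes with 2 or more probes that cleared the background everywhere, the gap between the lowest and highest probe had a median of 0.15 and ran from 0.059 (Hydin) to 0.64 (Dnah10). Over all 3406 such genes the median gap was 0.24. By level, the 2 members below −2 differed by −0.54 and 0.40, with a median of −0.071. The 19 members with a mean level above 2 had a median of 0.0064, and the 13 from 0 to 2 one of −0.035. The 6 members from −2 to 0 had a median of −0.30, where all genes of that level had one of 0.024 with a middle from −0.22 to 0.25. These 6 were Rfx2, Rfx3, Lrrc6, Spag16, Spag17 and Spef2, and all were below 0. From −2 upward the medians therefore rose with level, and only the 2 faintest members, of opposite sign, break that order. The value that stands apart rests on 6 genes.

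**Figure D4:**
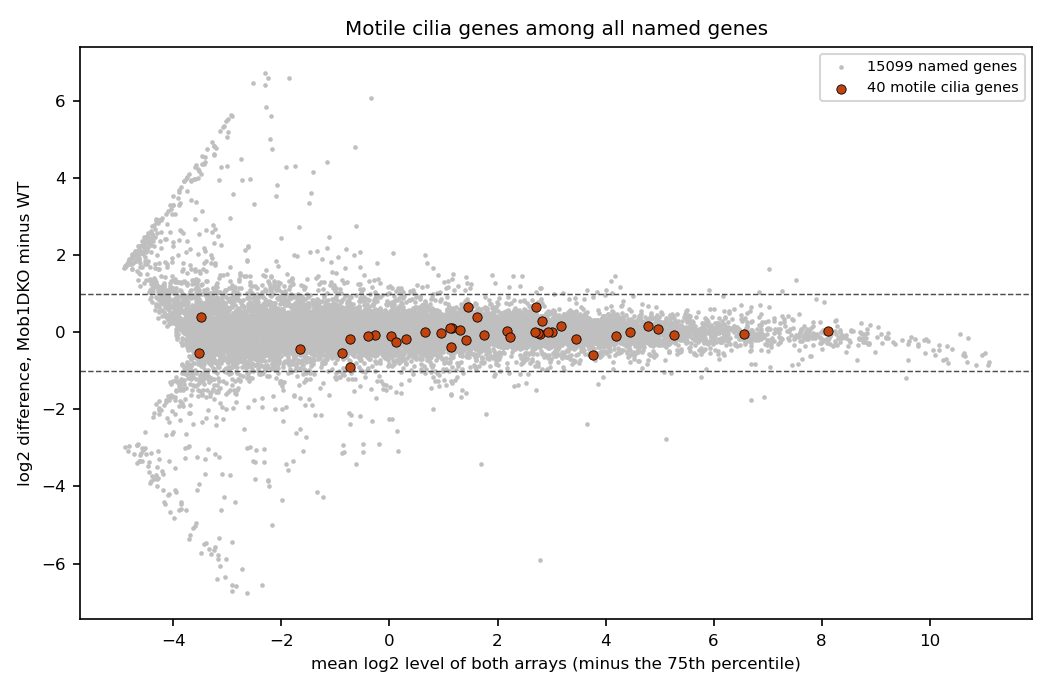
Log2 difference, Mob1DKO minus WT (vertical axis), against the mean log2 level of both arrays (horizontal axis) for 15099 named genes (grey) and the 40 motile cilia genes (coloured), with dashed lines at 2-fold. All motile cilia genes lie between the lines, and the faint genes on the left spread most.

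A second list held 114 further motile cilia genes, of which 98 had a named probe and 92 were measured. Their median was −0.018, and 1 of the 92 passed 2-fold. Of the 91 that cleared the background on both arrays this is 1.1%, against 2.68% of all such genes. That gene was Dnah7a, an inner arm heavy chain, at −0.30 against 0.73, or 2.04-fold lower. Its other probes differed by −0.86 and −0.22, and it was no longer past 2-fold with its probes averaged (−0.71) or with normexp (−0.80). With probes averaged, the 1 gene past 2-fold was instead the RFX factor Rfx4, named after its values were seen, at 1.13. Close paralogues of Dnah7a exist, and probes may not tell them apart. In the other groups, the gene with the brightest probe was the assembly factor Cfap300 (0.32), the dynein light chain Dynlrb2 (−0.30), Fam183b (0.59), Cfap74 of the central apparatus (0.40), Nme5 of the radial spokes (0.040), Cfap45 inside the doublets (0.096), Gas8 of the nexin link (0.15) and Ccdc78 of centriole production (0.15). The 12 measured regulators of the second list had a median of 0.098 and ran from −0.94 to 0.70. Group medians of the second list thus lay between −0.097 (radial spokes) and 0.17 (assembly factors).

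Markers of other cells of the airway and lung did not all share this level pattern. All 9 goblet cell markers were at least 2-fold lower on the Mob1DKO array, with a median of −1.64, and their summed signal relative to the 75th percentile was 136 against 505. Of 9 basal cell markers 5 were at least 2-fold lower, with a median of −1.04 over all 9 and summed signals of 39.1 and 51.2. Of 8 measured club cell markers 2 were at least 2-fold lower and 1 was higher by that much. Their median was −0.48, with summed signals of 3876 and 6300. Of all measured genes 2.91% were at least 2-fold lower and 3.79% higher by that much. The summed signal of the 40 motile cilia genes was 637 against 636. Program regulators, mainly the bright Mcidas probe, gave 295 against 288 of it, and doublet microtubule genes with the tubulins gave 183 against 183. The sum therefore rests mostly on a few bright genes. None of 10 type 2, 7 type 1 and 8 general epithelial markers passed 2-fold, with medians of −0.21, 0.093 and 0.0065. Of the measured markers of other cells, 1 of 7 for leukocytes (Cd79a, at least 3.38-fold), 1 of 6 for neuroendocrine cells and 1 of 10 for mesenchymal cells (Lum, at least 2.22-fold) were higher by 2-fold or more and 0 lower. S100a8 of leukocytes, at a difference of 1.26, also met the 2-fold rule used for all genes and is not in the count above. It did not clear the background in WT and was near it in Mob1DKO, so it is given no fold. None of 4 for endothelium passed 2-fold. All 5 for red cells were lower, with differences of −3.10 for Hba-a1 and −3.42 for Hba-a2, while Hbb-bs, Hbb-b2 and Hbb-bt did not clear the background in Mob1DKO and were at least 3.23-fold, 5.78-fold and 19.4-fold lower. The defining markers Muc5ac (goblet), Krt5 (basal), Scgb1a1 (club) and Sftpc (type 2) differed by −1.27, −2.89, −0.84 and −0.78. The value of Krt5 was the lowest of the basal list, which ran up to 0.22, and came from 1 of its 2 probes. Trp63, the brightest basal marker, differed by −0.23. None of these defining markers was near the background. The part of the cell makeup in the members' differences was not tested.

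**Figure D5:**
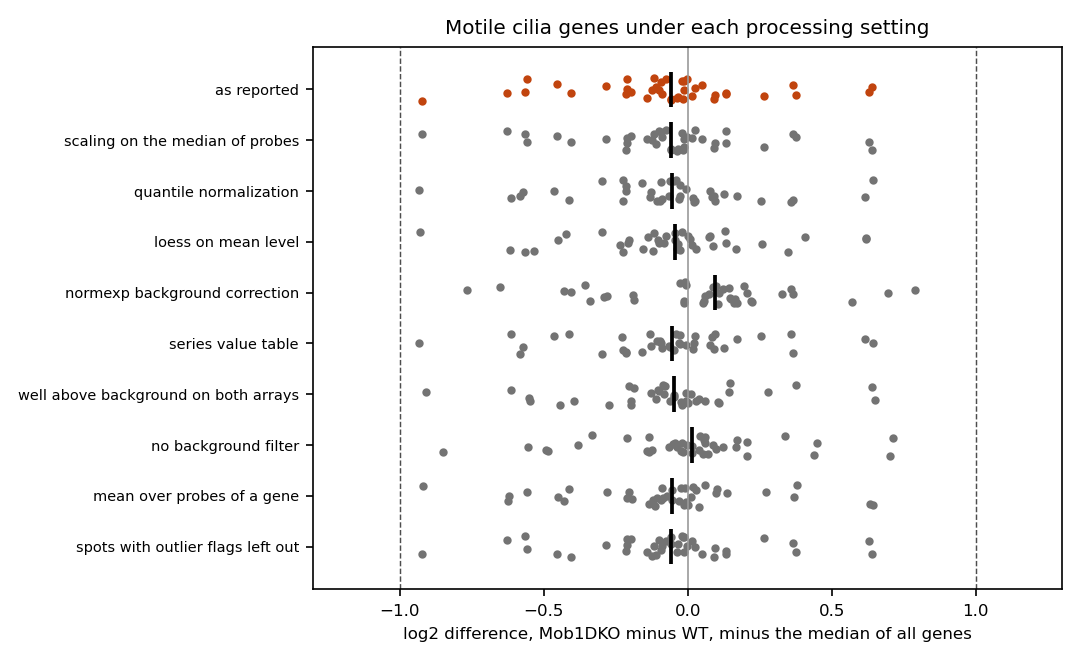
Log2 difference, Mob1DKO minus WT, minus the median of all genes (horizontal axis), of each measured motile cilia gene under the reported processing and 9 other settings, with the median as a black bar and dashed lines at 2-fold. No gene passes 2-fold under any of these settings, and the median lies between −0.059 and 0.093.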

How the data were processed

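Per the labels' protocols, total RNA was amplified, labelled with Cy3 and hybridised. Per the file headers, the authors extracted the spot intensity with Agilent Feature Extraction 10.7.1.1 on a grid of build mm9. Version 9.5.1.1 is named in the submitters' processing notes. The deposited processed intensity is background-subtracted, detrended and not normalized between arrays. The deposited value table holds intensity values with equal quantiles in both columns, on a linear scale; the sources used here do not give how it was made. The other deposited columns used are 0 or 1 flags.

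Spots of a probe were averaged, and log2 was taken minus the 75th percentile. Probes were named through RefSeq accessions in a table of assembly GRCm38.p6 (27235 of 55681 probes), used for names and neighbours only, since the array's grid is on mm9. Promoter windows carry their own GRCm38.p6 coordinates. A gene was called when it differed by at least 2-fold and its brighter array cleared the background. A gene not well above background on the other array has a bound, set against the higher of its own value there and the lowest level well above background (−4.10 for Mob1DKO, −3.45 for WT). The members, lists, groups and rules were chosen with earlier results of these data known. Every measured member is named, and of the second list the called genes and the gene with the brightest probe in each other group. The method was tested on simulated data in which the added differences were all well beyond 2-fold. That test says nothing of smaller differences, such as those of the members. Alternatives were other scalings (median, quantile, loess with a span of 0.3), normexp background correction (limma 3.58.1, offset 50), the value table, other background filters, averaged probes and removal of flagged spots. Naming by a gene name column was planned, but the scanner files used here hold none. The X-box search counts windows, some of which belong to 1 gene. Python 3.11.15 was used.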

Additional observations from a re-analysis of the deposited data

How the results depend on the processing

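No paired analysis was possible because each group has 1 array. Under the 9 other settings, 0 members passed 2-fold, with no test run, and 23 of 40 kept 1 sign relative to the median of all genes, the other 17 did not. Of 359 member values, 34 moved by more than the technical SD, 24 of them under normexp correction, which used the median spot signal and was chosen after seeing the files. That correction gave medians of 0.094 for all members, 0.11 for outer and 0.11 for inner dynein arms, 0.16 for the nexin link and ruler, 0.058 for radial spokes, 0.21 for doublet microtubules and 0.079 for the remaining ciliary proteins. It left 0 calls in the second list, and 99 higher and 173 lower calls among all genes, against 572 and 439; the cause was not tested. With probes averaged, the radial spoke median was 0.030. Requiring both arrays to be well above background gave 174 higher and 198 lower calls among all genes. This filter leaves out genes that cleared the background on 1 array only, which held most of the calls. With no background filter, which adds Spag6, the members' median lay 0.015 above that of all genes, and there were 2 calls in the second list (Dnah7a and Nme8) and 1208 lower calls among all genes. Differences of faint members such as Dnah9 and Dnaaf1 are limited by signal over background. Foxj1 ranged from 0.64 to 0.79, Tekt2 from 0.65 to 0.70, Rfx3 from −0.60 to −0.40, Rsph9 from −0.62 to −0.36 and Spef2 from −0.92 to −0.77.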

Other observations

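The second probes of Spag16, Spag17 and Pifo and both probes of Spag6 cleared the background on neither array, so they give no difference. Among other regulators of multiciliated cells, Gmnc, which acts upstream of Mcidas, was at −3.02 in Mob1DKO and −2.08 in WT, differing by −0.94 on a faint probe with a technical SD of 0.36. Myb, which drives centriole amplification, was at 1.28 and 1.09 (0.19), Trp73, which activates Foxj1, at −0.22 and −0.16 (−0.062), and Foxn4 at −1.07 and −1.38 (0.30). Rfx4, an RFX factor, was at −0.79 and −1.49 on its brighter probe (0.70). Its second probe was at −2.35 in Mob1DKO, did not clear the background in WT, and was at least 2.15-fold higher in Mob1DKO. With normexp correction the Rfx4 difference was 0.23. These 5 genes were picked for their roles after their values were seen.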
